A study of Mus musculus with 6 samples.

Results

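The genes described here are Snai1 and its relatives among the transcription factors of the mesenchymal transition, Snai2, Twist1, Twist2, Zeb1 and Zeb2, together with the effectors Vim, Fn1 and S100a4. They were chosen by name. The expression table holds 19320 genes and 8 of the 9 named genes. S100a4 was not analysed here. Levels came from messenger RNA sequencing of samples labelled as mouse heart, all collected at 2 weeks, in 3 groups of 2 libraries. The sham group was wild type with a sham operation. The TAC group was wild type with transverse aortic constriction, a surgical narrowing of the aorta against which the left ventricle has to pump. The knockdown group had TAC together with Snai1 knockdown, which the design text calls shSnai1. No label gives the delivery, the target cells or the sequence of the hairpin, a control hairpin in the other groups, or the strain, sex and age of the mice, and none says whether separate animals gave the libraries within a group. The extraction protocol also speaks of cultured cells, and the title of EndoFP, which the labels do not explain. The p-values thus rest on the spread between such libraries, and that spread may be technical.

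The transition from an epithelial or endothelial to a mesenchymal state is driven by a small set of DNA-binding repressors. Snail (Snai1) and Slug (Snai2) are zinc finger proteins that bind E-box motifs and shut down cell junction genes, the ZEB factors do the same through zinc finger clusters at both ends, and the Twist factors are basic helix-loop-helix proteins that pair with E proteins. Vimentin (Vim), an intermediate filament protein, and fibronectin (Fn1), an adhesive matrix glycoprotein, are read as effectors of the mesenchymal state. In the adult heart both are also made by resident fibroblasts, endothelial cells and leukocytes, and the ZEB factors are present in several of these cell types.

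The Snail and Twist genes come as close relatives, so that reads of a relative could in principle be counted for the other gene. The stretches below are the most similar 120 bases of each pair of coding sequences, from GENCODE M21 on GRCm38, 5′ to 3′ on the plus strand of both genes. They are shown because they bear on how far the levels of the relatives are separate measurements. Capitals mark the bases that differ within a pair.
Snai1, coding bases 465 to 584: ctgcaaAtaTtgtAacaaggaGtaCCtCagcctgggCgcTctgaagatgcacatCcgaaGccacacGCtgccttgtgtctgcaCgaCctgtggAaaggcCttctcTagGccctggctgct
Snai2, coding bases 483 to 602: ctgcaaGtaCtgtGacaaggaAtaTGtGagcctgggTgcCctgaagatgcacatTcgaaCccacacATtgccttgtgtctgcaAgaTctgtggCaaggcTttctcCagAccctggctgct
Twist1, coding bases 321 to 440: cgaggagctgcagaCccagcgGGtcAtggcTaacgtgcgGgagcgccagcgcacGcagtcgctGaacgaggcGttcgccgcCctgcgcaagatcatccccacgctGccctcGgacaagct
Twist2, coding bases 183 to 302: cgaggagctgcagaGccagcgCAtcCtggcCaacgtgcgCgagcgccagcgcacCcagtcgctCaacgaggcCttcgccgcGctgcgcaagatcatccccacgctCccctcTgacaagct

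Over these windows Snai1 and Snai2 differed at 19 of 120 bases and Twist1 and Twist2 at 12 of 120. Over the aligned coding sequences Snai1 (795 bases) and Snai2 (810 bases) were 65.8% identical, and Twist1 (621 bases) and Twist2 (483 bases) 82.4%. The longest run without a mismatch that the transcripts of a pair shared was 23 bases in both pairs. Neither read length, aligner nor counting rule is stated in the sources used here, and how reads from such stretches were assigned is not known.

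The libraries held between 14835962 and 18247815 reads. The 2 deposited columns of each group behaved as mixtures of 2 libraries in proportions of 60% to 40% and 40% to 60%, and the values below are those of the libraries resolved from them, in CPM (reads scaled to the same total in every library). Replicate 1 is the library that makes up most of the first column of its group, and replicate 2 the library that makes up most of the second. Differences were tested with limma across the 14447 genes that passed a filter on low counts, with p-values adjusted by the Benjamini-Hochberg method over all of them, and a call needed an adjusted p below 0.05. The filter kept 7 of the 8 genes and left out Twist2. The heart label was matched by its defining cardiomyocyte markers, with Myh6 at 40890 to 51260 CPM and Tnnt2 at 11590 to 13250 CPM over the 6 libraries.

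No gene among the 7 tested was called in any of the 3 comparisons. Over all tested genes the call rate was 0.159% between TAC and sham (23 of 14447), 0% between knockdown and TAC (0 of 14447) and 0.242% between knockdown and sham (35 of 14447). At these rates a count of 0 among 7 genes is near the background and is not a result about them. The same holds for a count of 0 in the gene lists below. In either direction an unadjusted p below 0.05 was found for 9.57% of all tested genes between TAC and sham and for 8.8% between knockdown and sham, and for none of the 7 described here. Between knockdown and TAC 300 genes had an unadjusted p below 0.05, 2.08% of those tested, and 0 genes were called by limma, by limma-voom or by robust limma. The comparisons with sham share the sham libraries, and those with TAC share the TAC libraries.

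**Figure D1:**
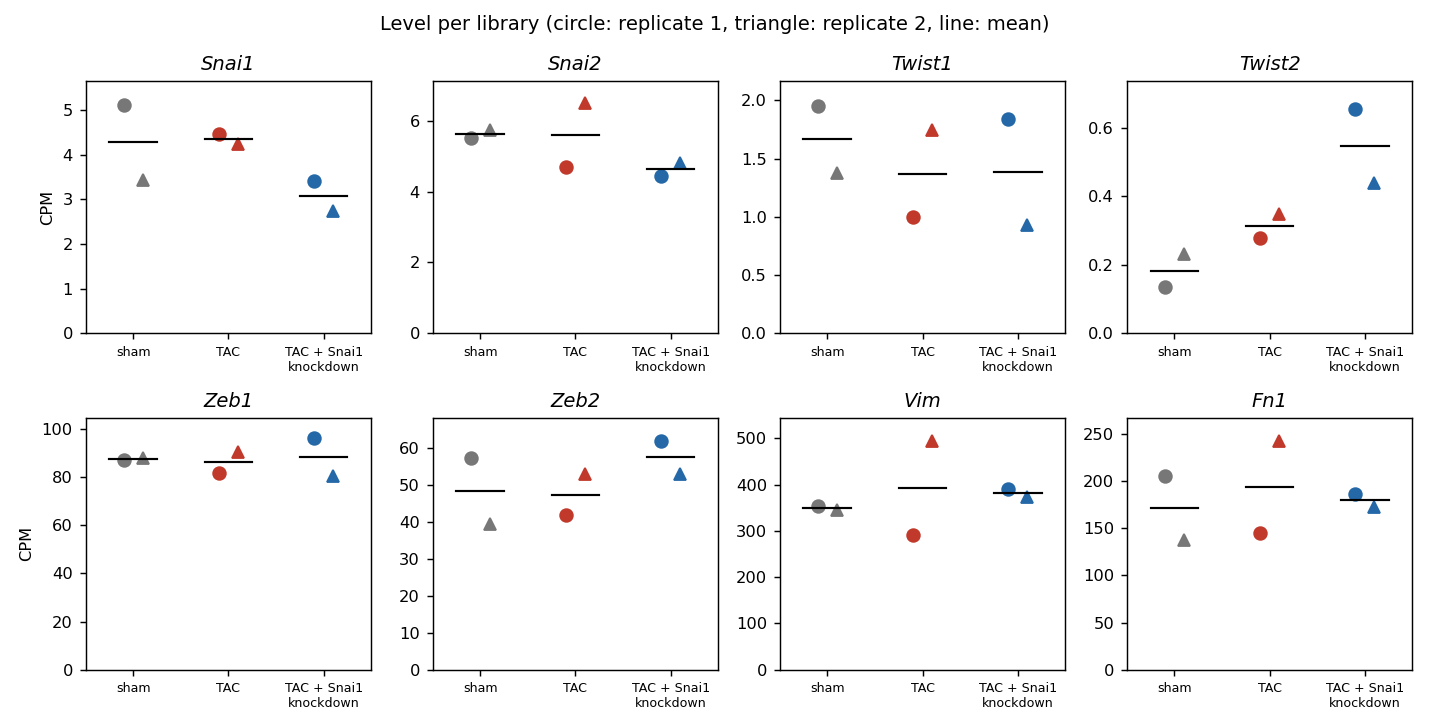
Level in CPM (vertical axis, from 0, a separate scale per gene) of the 8 genes in each library of the 3 groups. Circles are replicate 1, triangles replicate 2 and lines the mean of the 2 libraries. Snai1 is lowest in the 2 knockdown libraries (3.41 and 2.74 CPM), and Vim and Fn1 are furthest apart within TAC (290.1 and 494 CPM for Vim).

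Snai1, the targeted gene (ENSMUSG00000042821.7, chromosome 2 from 167538195 to 167542814 on the plus strand, GRCm38), had few reads in every library: 76 and 60 in the sham pair, 81 and 73 in the TAC pair and 52 and 50 in the knockdown pair. In CPM these were 5.12 and 3.45 in the sham pair, 4.48 and 4.24 in the TAC pair and 3.41 and 2.74 in the knockdown pair. Both knockdown libraries were lower than all the others, the higher of them at 3.41 CPM against 3.45 CPM in the nearest sham library. The same order, with both knockdown libraries below the 4 others, was found for 3.78% of all tested genes (546 of 14447).

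The log2 fold change of Snai1 between knockdown and TAC was -0.51 ± 0.33 (SE), with a 95% confidence interval from -1.22 to 0.21 (limma, adjusted p = 0.9995). On the linear scale this was a level of 0.704 times that of TAC, with an interval from 0.430 to 1.15 times, and the libraries do not separate a large loss of transcript from no difference. The unadjusted p was 0.15, at rank 1379 among the 14447 genes. Leaving out any 1 library kept the value between -0.66 and -0.35. Against sham the knockdown difference was -0.46 ± 0.33 on the log2 scale (interval -1.17 to 0.26, limma adjusted p = 0.745), and it was -0.17 without sham replicate 1, -0.30 without knockdown replicate 2 and -0.74 without sham replicate 2.

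TAC and sham differed little in Snai1, and sham held both a higher and a lower library than either TAC library. The fitted log2 difference was 0.05 ± 0.33, with an interval from -0.66 to 0.76 (limma, adjusted p = 0.974). Its sign rested on the sham libraries: it was -0.23 without sham replicate 2, 0.34 without sham replicate 1, and -0.02 with quantile normalization. The columns as deposited gave the same knockdown difference, -0.51, with an adjusted p of 2.41e-06 (limma), but the spread that test uses is between mixtures of the same 2 libraries and not between libraries.

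Snail is known to bind an E-box in its own promoter, which is shown here because the Snai1 transcript is the quantity the knockdown was meant to lower. The 250 bases before the start of the gene, chr2:167537945-167538194 on the plus strand (RefSeq, GRCm38.p6), read as follows, with the only E-box of the form CAGGTG or CACCTG in capitals.
Snai1 promoter: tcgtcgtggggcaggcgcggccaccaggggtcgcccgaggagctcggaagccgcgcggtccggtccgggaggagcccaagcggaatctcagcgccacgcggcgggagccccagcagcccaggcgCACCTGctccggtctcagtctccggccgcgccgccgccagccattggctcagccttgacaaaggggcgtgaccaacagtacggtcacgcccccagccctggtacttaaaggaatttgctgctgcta

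The motif began 126 bases before the start. CAGGTG and CACCTG are the same site read on opposite strands, and both were searched in the first 250 bases of every promoter window of the RefSeq table, whose entries have 250 bases before the start. At least 1 match was found in 17.2% of 32851 windows, and in 19.3% of the 13628 genes of the expression table that had a window. Of the 5 genes described here with a window, Snai1 had the match, and Twist1, Twist2, Vim and Zeb2 had none. A match is a description of the letters and not of binding.

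Snai2, which encodes Slug (ENSMUSG00000022676.7, chromosome 16), stood at 5.53 and 5.74 CPM in the sham pair, 4.70 and 6.50 in the TAC pair and 4.46 and 4.82 in the knockdown pair. The knockdown libraries were below both sham libraries, as for 13.9% of all tested genes. The TAC libraries spanned all the others but knockdown replicate 1. The log2 fold change between knockdown and TAC was -0.25 ± 0.28, with an interval from -0.86 to 0.35 (limma, adjusted p = 0.9995), and against sham it was -0.28 ± 0.28 (adjusted p = 0.822). Without TAC replicate 2 the first value was -0.02, and without TAC replicate 1 it was -0.49. Between TAC and sham the value was -0.03 ± 0.28, and it turned to 0.21 without TAC replicate 1.

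Twist1 (ENSMUSG00000035799.6, chromosome 12) was near the lower limit of what could be tested, with 17 to 30 reads per library. Its level was 1.96 and 1.38 CPM in the sham pair, 0.995 and 1.74 in the TAC pair and 1.84 and 0.932 in the knockdown pair, so that all groups overlapped. The confidence intervals spanned more than a doubling in either direction between knockdown and TAC, from -1.21 to 1.19 on the log2 scale around a value of -0.01 (limma, adjusted p = 0.9995). Twist2, which is known to repress muscle and bone genes (ENSMUSG00000007805.4, chromosome 1), had 2 and 4 reads in the sham pair, 5 and 6 in the TAC pair and 10 and 8 in the knockdown pair, at or below 0.656 CPM throughout.

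The Twist2 counts did not overlap between any 2 groups, but they were too few for the filter, and 3 reads corresponded to between 0.164 and 0.202 CPM. With all 19320 genes kept, its log2 fold change was 0.74 ± 0.87 between knockdown and TAC and 1.44 ± 0.87 between knockdown and sham, with an interval from -0.43 to 3.31 for the latter (limma, adjusted p = 0.745). Among the tested genes the groups did not overlap in either direction for 40.1% between TAC and sham, for 28.4% between knockdown and TAC and for 39.3% between knockdown and sham, so that separate ranges of 2 libraries each are common in these data.

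Zeb1 (ENSMUSG00000024238.15, chromosome 18), which represses E-cadherin and is held in check by the miR-200 family, was the most even of the genes. It stood at 87.0 and 87.9 CPM in the sham pair, 81.5 and 90.5 in the TAC pair and 96.0 and 80.6 in the knockdown pair, and the knockdown libraries were its highest and its lowest. The fitted log2 difference was -0.03 ± 0.12 between TAC and sham, 0.03 ± 0.12 between knockdown and TAC, and 0.01 ± 0.12 between knockdown and sham, the last turning to -0.05 with median ratio scaling and -0.02 with quantile normalization. The interval between knockdown and TAC, from -0.22 to 0.29, leaves room for a level between 0.856 and 1.23 times that of TAC (limma, adjusted p = 0.9995).

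Zeb2 (ENSMUSG00000026872.17, chromosome 2), which is also needed for the identity of tissue macrophages, had the smallest unadjusted p of the 7 genes between knockdown and TAC. It stood at 57.4 and 39.6 CPM in the sham pair, 41.8 and 53.0 in the TAC pair and 62.1 and 53.0 in the knockdown pair. Knockdown replicate 2 (52.99 CPM) lay only just above TAC replicate 2 (52.96 CPM), and sham replicate 1 lay between the knockdown libraries. The log2 fold change between knockdown and TAC was 0.29 ± 0.17, a 1.22-fold difference with an interval from 0.943-fold to 1.58-fold (limma, unadjusted p = 0.121 at rank 1010, adjusted p = 0.9995). It was 0.12 without TAC replicate 1, 0.17 without knockdown replicate 1 and 0.46 without TAC replicate 2. Between TAC and sham it was -0.02 ± 0.17, and this sign turned to 0.25 without sham replicate 1 and to 0.15 without TAC replicate 1.

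Macrophage markers were summed as well. All 14 listed markers had reads, and their summed level was 407 to 445 CPM in the sham pair, 587 to 729 in the TAC pair and 637 to 937 in the knockdown pair. The ranges of TAC and the knockdown overlapped. Lyz2 made up 36.2% of the sum. Between TAC and sham 13 of the 14 had a positive log2 fold change. Itgam went the other way, at 4.18 and 2.24 CPM in sham and 1.33 and 1.92 in TAC. Knockdown replicate 1 was highest for the sum and for Zeb2, as it was for 24.4% of all tested genes. In bulk samples fewer cells of a type and less RNA per cell cannot be told apart. Sham replicate 1, which had the second highest Zeb2 level, had a macrophage sum of 445 CPM. The part of macrophages in the Zeb2 values was not tested. Zeb2os, an antisense gene that lies within Zeb2, had 4 to 12 reads per library, and Gm10125, on the opposite strand within Zeb1, had 4 to 27. The strand setting of the counting is not given, so reads of such overlaps cannot be told apart.

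**Figure D2:**
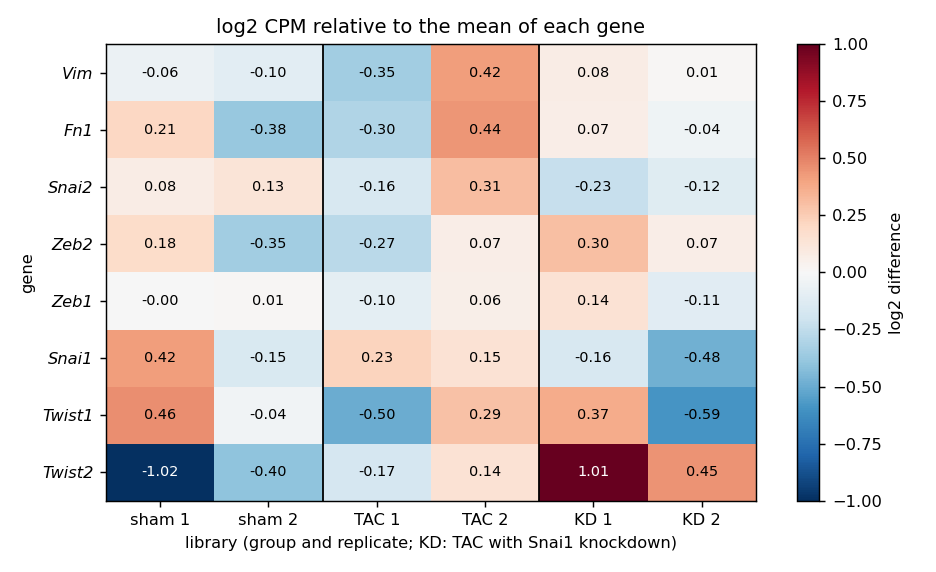
Log2 CPM of each gene in each library minus the mean of that gene over the 6 libraries, in log2 units (red above, blue below; the value is printed in each cell). TAC replicate 2 is highest for Vim (0.42), Fn1 (0.44) and Snai2 (0.31), TAC replicate 1 is below the mean for all but Snai1, and Twist2 rests on 2 to 10 reads.

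Vim (ENSMUSG00000026728.9, chromosome 2 from 13573927 to 13582826, plus strand) was the most abundant of the genes. It stood at 355 and 344 CPM in the sham pair, 290.1 and 494 in the TAC pair and 389.5 and 372 in the knockdown pair. The TAC libraries were its lowest and its highest, 1.70-fold apart, while the libraries of sham and of the knockdown were 1.03-fold and 1.05-fold apart. The fitted log2 difference between TAC and sham was 0.12 ± 0.17 (limma, adjusted p = 0.872). It was -0.27 without TAC replicate 2 and 0.50 without TAC replicate 1.

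The difference in Vim between knockdown and TAC was 0.01 ± 0.17 on the log2 scale, with an interval from -0.36 to 0.38 (limma, adjusted p = 0.9995), and its sign turned to -0.01 with median ratio scaling and to -0.03 in the columns as deposited. Both knockdown libraries were above both sham libraries, and the difference of 0.12 ± 0.17 did not pass (adjusted p = 0.881). Between knockdown and sham 25.5% of all tested genes had both knockdown libraries above both sham libraries.

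Fn1 (ENSMUSG00000026193.15, chromosome 1 from 71585520 to 71653200, minus strand) was likewise spread within TAC and also within sham. Its level was 206 and 137 CPM in the sham pair, 145 and 242 in the TAC pair and 187 and 173 in the knockdown pair. All 3 groups overlapped, and the knockdown libraries lay inside the ranges of both other groups. The log2 fold change was 0.16 ± 0.20 between TAC and sham (limma, adjusted p = 0.850) and -0.06 ± 0.20 between knockdown and TAC (adjusted p = 0.9995). The first was -0.21 without TAC replicate 2 and -0.14 without sham replicate 2, and the second was 0.31 without TAC replicate 2.

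Markers of the cell types that express Vim and Fn1 also differed between the TAC libraries. The summed level of the 12 endothelial markers was 2261 CPM in TAC replicate 1 and 2879 in TAC replicate 2, that of the 12 fibroblast markers 2915 and 3367, that of 11 smooth muscle and pericyte markers 1799 and 1932, and that of the 14 macrophage markers 587 and 729. The smooth muscle and pericyte sum leaves out Des, the desmin gene, which cardiomyocytes express at a high level and which made up 63.1% of the sum over the full list, and Gsn, the gelsolin gene, made up 46.2% of the fibroblast sum. All of these markers had reads, although the smooth muscle gene Tagln stood at no more than 0.658 CPM. In sham the 4 sums were 2360 to 2408, 3164 to 3284, 1788 to 1906 and 407 to 445 CPM, and in the knockdown 2519 to 2864, 3082 to 3517, 1861 to 2132 and 637 to 937 CPM. All 4 sums were thus higher in TAC replicate 2 than in TAC replicate 1, as were the 7 genes in the table other than Snai1, which was slightly lower there. Among the defining markers Pdgfra of fibroblasts stood at 41.6 and 50.05 CPM in the TAC libraries and Pecam1 of endothelial cells at 252 and 333 CPM. Over all tested genes TAC replicate 2 was the highest of the 6 libraries for 21.4%. What these cell types contributed to the Vim and Fn1 values was not tested.

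**Figure D3:**
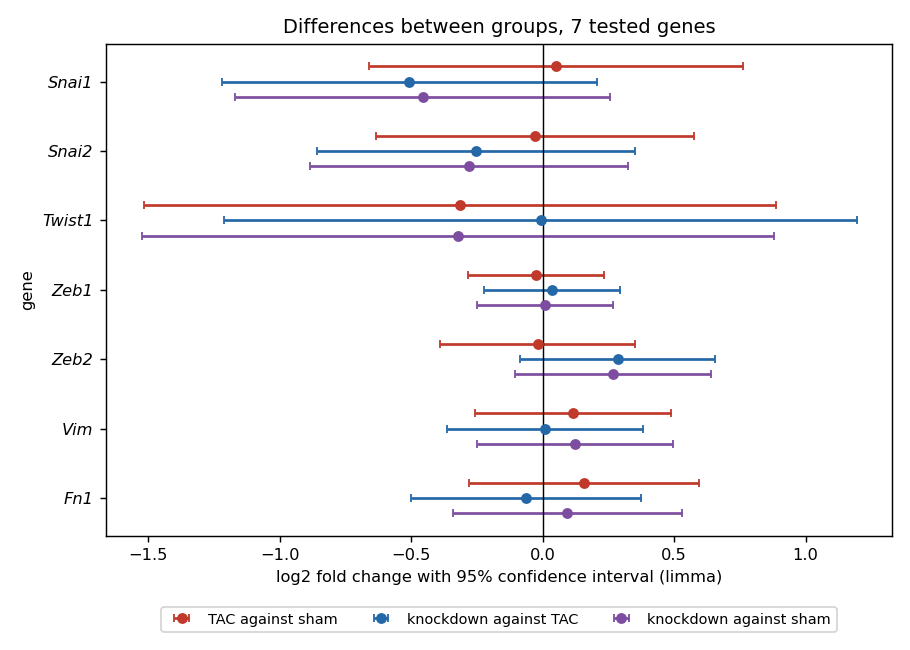
Log2 fold change (horizontal axis) of the 7 tested genes in the 3 comparisons, with the 95% confidence interval of the limma fit across all 6 libraries. Every interval includes 0, the narrowest are those of Zeb1 (SE 0.12) and the widest those of Twist1 (SE 0.56).

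Levels of different genes were compared as CPM per kilobase of exon, with exon lengths from the GENCODE M21 basic annotation. Vim was highest at 132 to 225 CPM per kilobase over the 6 libraries, followed by Fn1 at 16.2 to 28.6, Zeb1 at 13.9 to 16.6 and Zeb2 at 3.46 to 5.43. Snai2 at 2.21 to 3.22 and Snai1 at 1.69 to 3.16 could not be put in an order, since Snai2 was between 0.842 and 1.41 times Snai1 and was higher in 4 of 6 libraries. Twist1 followed at 0.572 to 1.201 and Twist2 at 0.0425 to 0.207 CPM per kilobase. The ranges of Fn1 and Zeb1 overlapped, although Fn1 was the higher in each of the 6 libraries.

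Per kilobase Zeb1 was 4.75 to 8.22 times Snai1, with the ratios of 7.87 and 8.22 in the knockdown pair above those of 5.09 and 5.96 in the TAC pair and 4.75 and 7.13 in sham. The Zeb1 to Zeb2 ratio was 2.99 and 4.37 in the sham libraries, 3.84 and 3.37 in those of TAC and 3.05 and 3 in those of the knockdown, so that the knockdown lay below TAC and sham spanned both. These ratios are made of the levels given above and are not separate results. How often the ratios of other genes take such an order was not counted. Of the 6 factors only the Twist genes lay below Snai1 in every library.

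The genes whose profile over the 6 libraries was most like that of Snai1 were sought among 13065 other genes averaging 20 reads or more, by the root mean square difference of log2 CPM after each gene was centred on its own mean. Dedd, a death effector domain protein, was nearest at 0.11, followed by Reep4 (0.11), the predicted gene Gm9030 (0.12), Bend5 (0.12) and Rpgr (0.12), where the Snai1 profile itself had a root mean square of 0.30 and the median gene differed from it by 0.35. Dedd stood at 7.55 and 4.77 CPM in the sham pair, 5.14 and 5.40 in the TAC pair and 4.52 and 3.51 in the knockdown pair. All 5 shared with Snai1 the highest value in sham replicate 1 and the lowest in knockdown replicate 2. They were chosen for a profile close to that of Snai1, so this was nearly fixed in advance.

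For Vim the nearest profiles were those of Nrp2, a receptor for semaphorins and VEGF family members (0.05), Trdmt1, a tRNA methyltransferase (0.06), and Sulf1, an extracellular heparan sulfatase (0.06). Trdmt1 lies on the minus strand of chromosome 2, 29258 bases away from Vim, with no overlap in the annotation. For Fn1 they were Cnnm4, a magnesium transporter (0.02), Cd276, an immune checkpoint ligand (0.05), and the zinc finger gene Zfp469 (0.07). All 6 of these genes were highest in TAC replicate 2, as Vim and Fn1 were: Nrp2 stood at 65.6 and 103.5 CPM in the TAC libraries and Cnnm4 at 6.63 and 10.6. The choice by likeness of profile nearly fixed this in advance too.

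Upstream signals known to induce Snai1 or the transition were described from a list of 27 genes, of which 26 were tested. Between TAC and sham 0 were called in either direction, and the median log2 fold change of the list was 0.08, beside 0.04 for all tested genes. Edn1, which encodes the vasoconstrictor peptide endothelin-1, had the smallest unadjusted p in both comparisons, with 1.48 and 2.07 CPM in the sham pair, 4.20 and 5.69 in the TAC pair and 2.75 and 3.07 in the knockdown pair. The 3 groups did not overlap, with TAC highest and the knockdown between. Over all tested genes TAC lay above sham without overlap for 23.8%, the knockdown above sham for 25.5% and the knockdown below TAC for 12.4%. The share of genes with all 3 was not counted. The log2 fold change of Edn1 was 1.46 ± 0.37 between TAC and sham (limma, adjusted p = 0.171) and -0.74 ± 0.37 between knockdown and TAC (adjusted p = 0.9995), and neither passed. Nfkb1, a subunit of NF-kappaB, followed between TAC and sham at 0.19 ± 0.13, and the Notch ligand Jag1 between knockdown and TAC at 0.26 ± 0.20 on the log2 scale.

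Other factors of the transition were read from a list of 20, of which 17 were tested and 0 called in either comparison, with medians of 0.12 between TAC and sham and -0.01 between knockdown and TAC. Sox4, a high mobility group factor, stood at 10.9 and 5.11 CPM in the sham pair, 18.2 and 15.6 in the TAC pair and 8.59 and 18.1 in the knockdown pair, a log2 fold change of 1.17 ± 0.35 between TAC and sham (limma, adjusted p = 0.249). Sox9, a related factor of cartilage and valve cells, stood at 4.72 and 5.81 CPM in the knockdown libraries against 6.63 and 9.35 in those of TAC (log2 -0.59 ± 0.28, limma adjusted p = 0.9995). The T-box factor Tbx20 differed by 0.28 ± 0.14 between TAC and sham, and Tead1, a partner of YAP, by -0.18 ± 0.11 between knockdown and TAC, both short of the threshold. Of 12 factors and Id proteins that oppose the transition 8 were tested and 0 called. Their median was 0.06 between TAC and sham and -0.20 between knockdown and TAC, where the median of all tested genes was 0.02. The inhibitor of DNA binding Id3 differed by 0.29 ± 0.17 between TAC and sham. Grhl1, a grainyhead factor of epithelial cells, had 6 to 20 reads per library, at -1.14 ± 0.76 between TAC and sham and 1.19 ± 0.76 between knockdown and TAC, and its relative Grhl2 stood at -0.62 ± 0.41 in the latter. None of these values passed.

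The proteins that Snail works with, and those that mark it for destruction, showed no called member between TAC and sham or between knockdown and TAC. At the call rates given above a count of 0 in these lists is near the background. All 21 co-repressor genes were tested, with medians of 0.12 and -0.03 in these comparisons. Loxl2, a lysyl oxidase family member known to stabilise Snail as well as to act on matrix, stood at 18.1 and 16.8 CPM in the sham pair, 25.2 and 33.9 in the TAC pair and 26.9 and 29.0 in the knockdown pair. TAC and the knockdown both lay above sham without overlap, and the log2 fold change between TAC and sham was 0.74 ± 0.17 (limma, adjusted p = 0.105). Over all tested genes TAC lay above sham in this way for 23.8% and the knockdown for 25.5%. Mta1, a subunit of the NuRD complex, was on the other side, with 118 and 114 CPM in sham against 89.1 and 92.9 in TAC (log2 -0.35 ± 0.11, limma adjusted p = 0.275). The deacetylase gene Hdac2 (log2 -0.16 ± 0.12) and the Polycomb subunit gene Eed (log2 -0.19 ± 0.17) had the smallest unadjusted p of the list between knockdown and TAC.

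All 22 genes for the turnover and transport of Snail protein were tested, with medians of 0.02 and -0.01. Fbxw7, a substrate receptor of an SCF ubiquitin ligase, had 72.7 and 57.2 CPM in the sham pair, 83.9 and 85.1 in the TAC pair and 69.7 and 69.0 in the knockdown pair, a log2 fold change of 0.39 ± 0.13 between TAC and sham (limma, adjusted p = 0.318) and -0.29 ± 0.13 between knockdown and TAC (adjusted p = 0.9995). Btrc, which encodes the beta-TrCP receptor that recognises phosphorylated Snail, differed by -0.35 ± 0.15 on the log2 scale between TAC and sham (limma adjusted p = 0.486), and the ubiquitin ligase gene Mdm2 by -0.17 ± 0.11 between knockdown and TAC. Changes in Snail protein cannot be read from transcript levels.

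Genes known to be repressed by Snail family factors, or lost with the endothelial state, numbered 24 in the list, of which 15 were tested. None was called, and the medians were 0.01 between TAC and sham and 0.03 between knockdown and TAC. The first was 0.23 without TAC replicate 1, and the second 0.15 without knockdown replicate 2. Cdh1, the E-cadherin gene and the best known Snail target, had 2 and 0 reads in the sham pair, 4 and 3 in the TAC pair and 0 and 0 in the knockdown pair, at which depth no difference was detectable. Cdh5, its endothelial counterpart VE-cadherin, stood at 429 and 364 CPM in the sham pair, 376 and 466 in the TAC pair and 479 and 424 in the knockdown pair, with all groups overlapping.

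Cldn5, a claudin of endothelial tight junctions, had 7.08 and 9.88 CPM in the sham pair, 12.6 and 15.6 in the TAC pair and 12.5 and 11.7 in the knockdown pair. Its log2 fold change was 0.74 ± 0.22 between TAC and sham (limma, adjusted p = 0.258). The von Willebrand factor gene Vwf had 89.8 and 102 CPM in the sham pair, 117 and 144 in the TAC pair and 169 and 134 in the knockdown pair, a log2 fold change of 0.44 ± 0.14 between TAC and sham (adjusted p = 0.290) and 0.21 ± 0.14 between knockdown and TAC. Against sham its knockdown difference was 0.65 ± 0.14 (limma, adjusted p = 0.0933). The summed endothelial markers given above were higher than in either sham library in TAC replicate 2 and in both knockdown libraries, and lower in TAC replicate 1, and their part in these values was not tested. Esr1, the estrogen receptor gene, differed by 0.89 ± 0.59 between knockdown and TAC on 14 to 30 reads per library. At least 1 CAGGTG or CACCTG stood in the 250 bases before the start of 8 of the 16 genes of this list that had a row and a promoter window, beside 19.3% of the genes of the table, and of 1 of 17 mesenchymal effectors with a window. The repressed list was compiled from genes known to respond to Snail, so this share is not independent of the motif.

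Effector and matrix genes other than those described above were read from a list of 32, all tested. Between TAC and sham 0 were called and the median was 0.12, which turned to -0.08 without TAC replicate 2 and was 0.32 without TAC replicate 1. Between knockdown and TAC 0 were called and the median was -0.05, which was 0.20 without TAC replicate 2 and -0.31 without TAC replicate 1. Both signs thus depended on the TAC libraries, as for Fn1. Col3a1, the fibrillar collagen III gene, stood at 186 and 165 CPM in the sham pair, 199.5 and 363 in the TAC pair and 246 and 239.9 in the knockdown pair (log2 0.62 ± 0.19 between TAC and sham, limma adjusted p = 0.279).

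Loxl1, a lysyl oxidase relative needed for elastic fibres, stood at 41.2 and 48.1 CPM in the sham libraries, 55.5 and 66.9 in those of TAC and 55.6 and 54.8 in those of the knockdown (log2 0.45 ± 0.13 between TAC and sham, limma adjusted p = 0.252). Lox, which encodes the collagen crosslinking enzyme lysyl oxidase, stood at 7.14 and 4.65 CPM in the sham pair, 7.90 and 12.9 in the TAC pair and 6.29 and 6.30 in the knockdown pair. Its log2 fold change was -0.68 ± 0.29 between knockdown and TAC (limma, adjusted p = 0.9995), and both knockdown libraries lay below both TAC libraries, as for 12.4% of all tested genes. Mmp9, a gelatinase of neutrophils and macrophages, had 12 and 20 reads in the sham pair, 2 and 6 in the TAC pair and 23 and 11 in the knockdown pair (log2 2.11 ± 0.88 between knockdown and TAC, adjusted p = 0.9995). The granulocyte genes S100a8 and S100a9, listed both as S100 family and as granulocyte markers, had 43 and 68 reads in knockdown replicate 1 and at most 12 and 24 in the other libraries. The 8 granulocyte markers summed to 13.8 CPM in knockdown replicate 1 and to 3.91 to 7.03 CPM elsewhere, and the part of granulocytes in the Mmp9 counts was not tested.

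Receptors and matrix partners of fibronectin held the one called gene of these lists. Of 25 genes tested, Fbn1 rose between TAC and sham and none fell, where 0.0831% of all tested genes rose and 0.0761% fell, and the list median was -0.03. The list was chosen with earlier results of these data known, so this count is not independent of the data. The list median between knockdown and TAC was 0.05 and none was called. Fbn1 encodes fibrillin-1, the microfibril protein whose assembly is known to depend on fibronectin. It stood at 67.3 and 70.3 CPM in the sham pair, 121 and 157 in the TAC pair and 124 and 126 in the knockdown pair, with TAC and the knockdown apart from sham. The rise was 2.004-fold between TAC and sham (log2 1.003 ± 0.13, limma adjusted p = 0.00536) and 1.82-fold between knockdown and sham (log2 0.86 ± 0.13, adjusted p = 0.013). Its difference between knockdown and TAC was -0.14 ± 0.13 (adjusted p = 0.9995). The call against sham was lost for TAC without TAC replicate 2 (log2 0.81, adjusted p = 0.0779), and for the knockdown without sham replicate 2 (0.0608), knockdown replicate 1 (0.144) or knockdown replicate 2 (0.11). The difference between knockdown and sham stayed at 0.83 to 0.90 on the log2 scale whichever library was left out. Syndecan-4 (Sdc4), a co-receptor for fibronectin, was at 16.4 and 15.5 CPM in the sham libraries and 12.2 and 10.7 in those of TAC (log2 -0.48 ± 0.19, limma adjusted p = 0.417). Fibulin-1 (Fbln1) and Dpp4 had the smallest unadjusted p-values between knockdown and TAC, at 0.21 ± 0.11 and 0.60 ± 0.38. The integrin genes Itga5 and Itgb1, whose products form the main fibronectin receptor, had log2 fold changes of 0.09 ± 0.13 and 0.07 ± 0.10 between TAC and sham.

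Relatives and partners of vimentin and of the S100 proteins had no called member. Of 18 other intermediate filament and linker genes 11 were tested, with medians of 0.17 between TAC and sham and -0.09 between knockdown and TAC. Lmna, the lamin A/C gene, differed by 0.22 ± 0.13 and the linker gene Plec, plectin, by 0.17 ± 0.12 between TAC and sham (limma, adjusted p = 0.626 and 0.702). The linker gene Dst (-0.18 ± 0.10) and the lamin gene Lmnb2 (-0.32 ± 0.25) led the list by unadjusted p between knockdown and TAC. Of 20 S100 genes and partners 13 were tested, with a median of 0.09 between TAC and sham and 0.10 between knockdown and TAC, where S100a13 (0.23 ± 0.17) and S100a16 (0.16 ± 0.14) had the smallest unadjusted p-values. The latter median was 0.29 without TAC replicate 2. Anxa2, the annexin that binds S100a10, stood at 56.0 and 65.1 CPM in the sham pair, 77.0 and 106 in the TAC pair and 81.0 and 83.2 in the knockdown pair (log2 0.58 ± 0.15 between TAC and sham, adjusted p = 0.163). S100a6, or calcyclin, had 12.7 and 8.62 CPM in the sham pair, 15.7 and 15.4 in the TAC pair and 17.0 and 13.8 in the knockdown pair (log2 0.58 ± 0.21, adjusted p = 0.386).

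**Figure D4:**
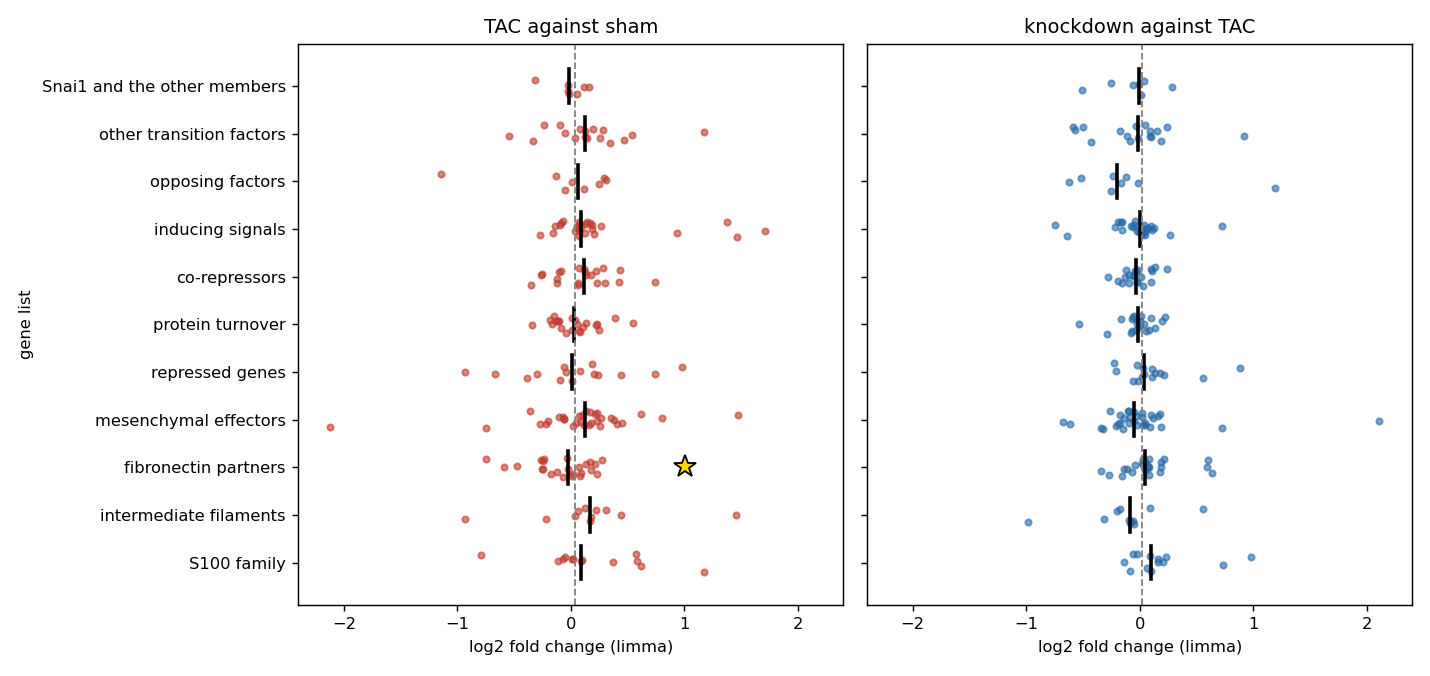
Log2 fold change (horizontal axis, limma) of each tested gene of the 11 lists, between TAC and sham (left) and between knockdown and TAC (right). Each dot is a gene, black bars are list medians, the dashed line is the median of all 14447 tested genes, and the star marks Fbn1, the only called gene of these lists in the 2 comparisons shown.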

How the data were processed

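Messenger RNA of 6 mouse heart samples was sequenced, in 3 groups of 2. The deposited table holds log2 values for 19320 genes, which the authors made with limma and the build mm10, per the submitters' processing notes; no version, aligner, counter, annotation or strand setting is given in the sources used here. From the values, each deposited log2 column is log2 of CPM with 0.5 added to the reads. Reads were recovered from the log2 values and each pair of columns was resolved as mixtures with shares of 60% and 40%, which gave whole counts within 0.05 for 99.9% of 115920 values, and 57.3% or less at the other shares tried. The mean chi-square per gene between the deposited columns of a group was 0.519 to 0.58, below the sampling of reads, and 13.1 to 14.5 between the resolved libraries.

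All libraries were fitted together in limma 3.58.1 (R 4.3.3, eBayes with an intensity trend, 3 residual and 11.3 prior degrees of freedom) on log2 CPM with 0.5 reads added, so fold changes of genes with few reads are understated. Genes were kept with at least 10 reads (0.577 CPM, scaled to the median library) in at least 2 libraries and 15 reads in all, which left 14447. No count model was used, although reads had been recovered, and the fits kept to log2 CPM, the scale of the deposited file. The procedure was also run on simulated data. The changes set there were larger than any difference fitted for the tested genes described here, so that run does not cover differences of their size. Sequences were compared with Biopython 1.88. The 9 genes and all lists were chosen with earlier results of these data known. All 9 were to be described, with the genes of each list that were called or had the 2 smallest p between TAC and sham or between knockdown and TAC, and the most alike profiles. Other genes named (Cdh1, Cdh5, Gm10125, Itga5, Itgam, Itgb1, Lyz2, S100a8 and S100a9) were chosen for their role or after their values were seen, as was the separate summing of Des and of platelet and erythroid markers. Alternatives tried were 2 scalings, 2 reads added, no filter, limma-voom, robust limma, the columns as deposited, a replicate block, the compared groups alone, and leaving out each library.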

Additional observations from a re-analysis of the deposited data

How the results depend on the processing

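Of 168 log2 fold changes of the 7 genes under 8 other settings 164 kept their direction and side of the threshold, and none was called. Without the filter, with robust limma, with the replicate block or with the compared groups alone, the fit cannot change these log2 fold changes. Their directions were thus fixed in advance under those settings. The 4 that reversed were all near 0: Snai1 between TAC and sham at -0.02413 and Zeb1 between knockdown and sham at -0.0188 with quantile normalization, and Vim between knockdown and TAC at -0.01033 and Zeb1 between knockdown and sham at -0.04587 with median ratio scaling. The cause was not tested. With 1 library left out, 107 of 126 values kept their direction and 19 reversed. A comparison without the group of the left-out library keeps its value by construction, so part of the 107 was fixed in advance.

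Left out in turn, the libraries moved the difference between TAC and sham from -0.234 to 0.3355 for Snai1, -0.2618 to 0.2055 for Snai2, -0.7102 to 0.08243 for Twist1, -0.1013 to 0.049 for Zeb1, -0.2852 to 0.248 for Zeb2, -0.2686 to 0.4994 for Vim and -0.213 to 0.5267 for Fn1. Between knockdown and TAC they moved it from -0.6638 to -0.3493 for Snai1, -0.4853 to -0.01798 for Snai2, 0.1158 to 0.4558 for Zeb2, -0.4887 to 0.4734 for Twist1, -0.09223 to 0.1613 for Zeb1, -0.3753 to 0.3928 for Vim, -0.4321 to 0.3075 for Fn1 and -0.3304 to 0.05322 for Fbn1. Between knockdown and sham the ranges were -0.7405 to -0.1711 for Snai1, 0.0005591 to 0.5338 for Zeb2, -0.8026 to 0.1595 for Twist1, -0.1184 to 0.1352 for Zeb1 and -0.1982 to 0.3873 for Fn1.

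Calls between TAC and sham numbered 23, and were 42 with 2 reads added, 9 with no filter, and 4 to 45 with 1 library left out; the lowest was without TAC replicate 2 and the highest without sham replicate 1. Median ratio scaling gave 12 higher and 17 lower where the reported fit gave 12 and 11. Calls between knockdown and sham numbered 35, and were 14 with no filter, 18 with limma-voom, 22 with the compared groups alone, and 5 (without sham replicate 2) to 50 (without sham replicate 1). Between knockdown and TAC the count was 0 without any 1 library. Taken as deposited, the columns gave 13812 calls between TAC and sham, 12137 between knockdown and TAC and 13669 between knockdown and sham, with Vim at -0.03327 and Snai1 at -0.5133 between knockdown and TAC, and Snai1 at -0.4662 between knockdown and sham (limma adjusted p = 6.23e-06); by construction their spread is between mixtures of the same libraries.

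The replicate block gave 40 calls between TAC and sham, 1 between knockdown and TAC and 36 between knockdown and sham, and left Snai1 at -0.5066 between knockdown and TAC. Deviations of equally numbered libraries correlated at -0.0413, 0.0659 and 0.00495, which shows no strong shared shift. These values cannot settle whether equally numbered samples are paired. With 2 libraries a group and 50 to 81 Snai1 reads, depth and replication both limit these values.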

Other observations

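Marker lists of other cell types that the heart samples could hold gave the following summed levels. The lymphocyte markers summed to 15.1 CPM in sham replicate 1 and to 2.76 to 8.65 CPM in the other libraries. The 6 erythroid markers, mostly globins, summed to 1758 CPM in sham replicate 1 and to 755 to 1126 CPM in the others. The 4 platelet markers were higher in sham replicate 2, at 47.3 CPM, than in sham replicate 1, at 30.9 CPM, and summed to 8.54 to 12.8 CPM in the TAC and knockdown libraries. Epicardial markers summed to 34.2 to 49.1 CPM and Schwann cell markers to 81.3 to 105.3 CPM, with the lowest values of both in TAC replicate 1. Aldh1a1 made up 57.4% of the epicardial sum and Pmp22 79.1% of the Schwann cell sum. Of the 14 macrophage markers 3 rose between TAC and sham (limma), where 0.0831% of all tested genes rose, among them Mpeg1, the perforin-2 gene, by 1.86 ± 0.21 on the log2 scale (adjusted p = 0.00193) and Ms4a7 by 2.37 ± 0.37 (adjusted p = 0.0234). Of 8 tested platelet and erythroid markers 2 fell, where 0.0761% of all tested genes fell: Ppbp, the platelet basic protein gene, with a log2 fold change of -3.503 ± 0.47 (adjusted p = 0.00685), and Itga2b, the integrin alpha-IIb gene, with one of -2.64 ± 0.47 (adjusted p = 0.0447). The marker lists were chosen with earlier results of these data known, so these counts are not independent of the data and cannot be read as an enrichment.

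Low counts in the resolved libraries were more often even than odd. Of 17102 values from 1 to 9 reads 69.8% were even, of 14589 values from 10 to 49 reads 57.6%, and of 8262 values from 50 to 99 reads 50%. A count of 2 occurred 5575 times and a count of 1 occurred 1812 times. Snai1 had 50 to 81 reads per library, in the range where 50% of values were even. Twist1 had 17 to 30 and Twist2 had 2 to 10, in the lower ranges. The cause was not tested.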
